A study of Mus musculus with 6 samples.

Results

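The mouse microRNAs mmu-miR-15a-5p and mmu-miR-15b-5p, with mmu-miR-16-5p, mmu-miR-103-3p and mmu-miR-107-3p, were examined in type H and type L endothelial cells (ECs) of bone. These 5 of the 1881 mouse miRNAs (written below without the prefix for mouse) were taken by name, and their 5′ ends share a run of 7 bases. The run is not theirs alone, and 7 other miRNAs on the array carry it at their 5′ ends. Type H ECs (CD31hiEmcnhi) are the bone capillary cells that stain strongly for the adhesion molecule CD31 and the sialomucin endomucin, and type L ECs (CD31loEmcnlo) stain weakly for both. The arrays compared these populations to find miRNAs whose level differs between them. Both were sorted from bone marrow of wild-type C57BL/6 mice aged 1 month, with no treatment and no transgene in either group, and each was hybridized to 3 single-colour Agilent arrays. The labels give the mice as male and the methods as female, and the labels add a culture step in endothelial growth medium that the methods for the arrays leave out. The replicates are called biological, but whether each came from separate animals is not stated, so every p-value here measures only the spread between these samples.

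A miRNA guides the silencing complex to messenger RNAs mainly through its seed, bases 2 to 8 from the 5′ end. The miR-15/16 family is best known as a brake on the cell cycle and on survival, through targets such as cyclins and Bcl2, and in the endothelium it is known to act on Vegfa and Fgf2. MiR-103 and miR-107 lie in genes of pantothenate kinases, the enzymes that begin coenzyme A synthesis, and are known as regulators of insulin sensitivity and of Dicer, the nuclease that matures miRNAs.

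The mature sequences are shown because the shared run is read from them. They are RefSeq's, from 5′ to 3′, with bases 2 to 8 in capitals.
miR-15a-5p: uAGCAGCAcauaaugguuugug
miR-15b-5p: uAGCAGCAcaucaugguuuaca
miR-16-5p: uAGCAGCAcguaaauauuggcg
miR-103-3p: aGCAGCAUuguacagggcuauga
miR-107-3p: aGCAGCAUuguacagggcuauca
By this definition the 5 miRNAs had 2 seeds, not 1. The heptamer AGCAGCA was the seed of the 3 miRNAs of the miR-15/16 family, whereas miR-103-3p and miR-107-3p carried it from base 1, and their own seed was GCAGCAU. Of the 1608 array miRNAs with a mature sequence in RefSeq, 12 (0.746%) carried AGCAGCA starting at base 1 or 2. The members resembled each other to different degrees. MiR-103-3p and miR-107-3p differed at 1 of 23 positions, G22C counted from the 5′ end of miR-103-3p. MiR-15a-5p differed from miR-15b-5p at 4 positions and from miR-16-5p at 6, all of them behind the seed.

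The genes pair the members in another way. On assembly GRCm38.p6, mature miR-15a-5p lay at chr14:61632075-61632096 on the minus strand, 117 bases from a copy of miR-16-5p at chr14:61631936-61631957, and both were inside the long non-coding RNA gene Dleu2. Mature miR-15b-5p lay at chr3:69009775-69009796 on the plus strand, 121 bases from the second copy of miR-16-5p at chr3:69009918-69009939, and both were inside Smc4, which encodes a condensin subunit. MiR-103-3p had a copy in Pank3 (chr11:35782447-35782469, plus strand) and one in Pank2 (chr2:131288103-131288125, plus strand), and miR-107-3p lay in Pank1 (chr19:34820700-34820722, minus strand). Whether these places are exonic or intronic was not analysed here. The copies of miR-16-5p, and those of miR-103-3p, give the same mature RNA and were each read as 1 signal.

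Each member was read by 2 probes, DNA oligonucleotides that pair with it from its 3′ end inwards, all of them into the seed and 1 probe of miR-15a-5p over the whole length, each printed as 15 spots per array. The probes of miR-103-3p and miR-107-3p are shown because they decide how far this pair can be told apart. They are written 5′ to 3′, with the probe base that faces position 22 of the miRNA in capitals.
miR-103-3p, 17 bases: tCatagccctgtacaat
miR-103-3p, 18 bases: tCatagccctgtacaatg
miR-107-3p, 19 bases: tGatagccctgtacaatgc
miR-107-3p, 20 bases: tGatagccctgtacaatgct
Each of these probes had 1 mismatch to the other miRNA of the pair, the second base of the probe. How much of either signal came from the other miRNA was not tested. The probes of miR-15a-5p and miR-15b-5p had 4 mismatches to each other's miRNA, and those of miR-16-5p had 6 to the nearest member, miR-15a-5p. Mismatches were counted against the other members only. MiR-195a-5p, a miRNA outside the group shown further below, resembles miR-16-5p in its 3′ part. How much of the miR-16-5p signal came from miR-195a-5p was not tested, nor was cross-reading of other miRNAs outside the group. All 15 spots of every member probe were well above background on all 6 arrays, none was saturated, and the coefficient of variation among the spots of a probe was 2.10% to 9.47%.

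The 2 cell types were on different slides, 1 slide for the 3 arrays of each type, with a scan of its own. Cell type and slide cannot be told apart. Between 263 and 309 miRNAs were detected per array. Arrays of one cell type correlated at 0.998 to 0.999 across the 231 miRNAs detected on all 6 arrays and those of different types at 0.928 to 0.943, which describes the arrays only. The 10 control features above background, of which 4 are spike-ins, all gave more signal on the slide of the type H arrays, with log2 differences of 0.21 to 1.47. Their part in the results below was not tested. Both arms of miR-126a, a miRNA known to be abundant in endothelium, were undetected on every array (0 of 2), as were all 7 haematopoietic miRNAs looked for (0 of 7). Of 8 stromal miRNAs, 6 were detected on all 6 arrays, with a summed signal of 898 to 1138 on type H arrays and 769 to 880 on type L arrays, and of the 7 tested 5 were called higher and 1 lower in type H after quantile normalization, where 44.7% and 42.1% of all miRNAs tested were. Scaled on the control features, most miRNAs were called lower. The part of these cells' makeup in the results was not tested, and in a bulk sample fewer cells of a type cannot be told apart from less RNA per cell.

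All 5 members were detected on all 6 arrays. After quantile normalization they were higher in type H than in type L ECs, by 1.65-fold for miR-15a-5p, 1.57-fold for miR-15b-5p, 1.43-fold for miR-103-3p, 1.28-fold for miR-107-3p and 1.16-fold for miR-16-5p, but with scaling on the median of the control features none was called higher and 3 were called lower, and with scaling on the spike-ins all 5 were called lower. All 5 passed the test after quantile normalization (limma, Benjamini-Hochberg adjusted p under 0.05). In the same fit 270 of the 311 miRNAs tested passed (86.8%), 139 of them higher in type H (44.7%) and 131 lower (42.1%). A call in one direction or the other was thus the usual outcome for a miRNA in this comparison. The members differed from each other in their fold changes.

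The values before normalization are the sum of the total signals of a miRNA's 2 probes, in scanner units. MiR-15a-5p, the partner of miR-16-5p in the Dleu2 gene, read 124, 99.5 and 100.4 on type H arrays 1 to 3 and 60.1, 63.9 and 67.5 on type L arrays 1 to 3. The groups were far apart, and the lowest type H array was above the highest type L array. On the normalized log2 scale it was 6.74 ± 0.039 (SD, n = 3) in type H and 6.02 ± 0.044 (SD, n = 3) in type L ECs, a log2 fold change of 0.72 (standard error 0.037, limma adjusted p = 1.6e-05).

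MiR-15b-5p, its counterpart in Smc4, read 767, 641 and 599 on the type H arrays and 412, 456 and 468 on the type L arrays. Again no array of one type reached the other. Its normalized log2 signal was 9.43 ± 0.028 (SD, n = 3) against 8.78 ± 0.045 (SD, n = 3), and its log2 fold change was 0.65 (standard error 0.035, limma adjusted p = 1.7e-05).

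MiR-16-5p, encoded beside each of them, had the smallest fold change after quantile normalization, and with scaling on the control features the most negative one. It read 180, 150.2 and 141 on the type H arrays and 129, 142 and 147 on the type L arrays, so that before normalization type H array 3 lay below type L arrays 2 and 3 and the groups overlapped. After quantile normalization they no longer overlapped, with log2 signals of 7.34, 7.38 and 7.34 in type H and 7.08, 7.13 and 7.20 in type L ECs. This gave a log2 fold change of 0.21 (standard error 0.038, limma adjusted p = 0.0025). Apart from the scalings on control features, this was the one member that lost its call in any setting: the log2 fold change was 0.066 (adjusted p = 0.19 from limma) with scaling to the 75th percentile, 0.17 (adjusted p = 0.28) with no normalization and 0.11 (adjusted p = 0.19) with the totals as deposited.

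MiR-103-3p read 148, 122 and 116 on the type H arrays and 77.8, 83.6 and 84.7 on the type L arrays, without overlap. It held the same rank among the miRNAs on all 3 type H arrays, so quantile normalization gave it 6.97 on each of them, a spread of 0 that comes from the method. It was 6.45 ± 0.039 (SD, n = 3) in type L ECs, for a log2 fold change of 0.52 (standard error 0.030, limma adjusted p = 2.1e-05). MiR-107-3p, 1 base different, read 96.6, 82.5 and 75.8 on the type H arrays and 59.6, 64.9 and 67.1 on the type L arrays. These groups did not overlap either, but they lay closer together. On the log2 scale it was 6.36 ± 0.026 (SD, n = 3) in type H and 6.00 ± 0.045 (SD, n = 3) in type L ECs, which is a difference of 0.35 on the log2 scale (standard error 0.034, limma adjusted p = 0.00017). Ties of rank gave the other members equal normalized values too. MiR-107-3p had 1 value on type H arrays 1 and 2, and miR-15a-5p, miR-15b-5p and miR-16-5p each had 1 on type H arrays 1 and 3. Their small spreads thus also come in part from the method.

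**Figure D1:**
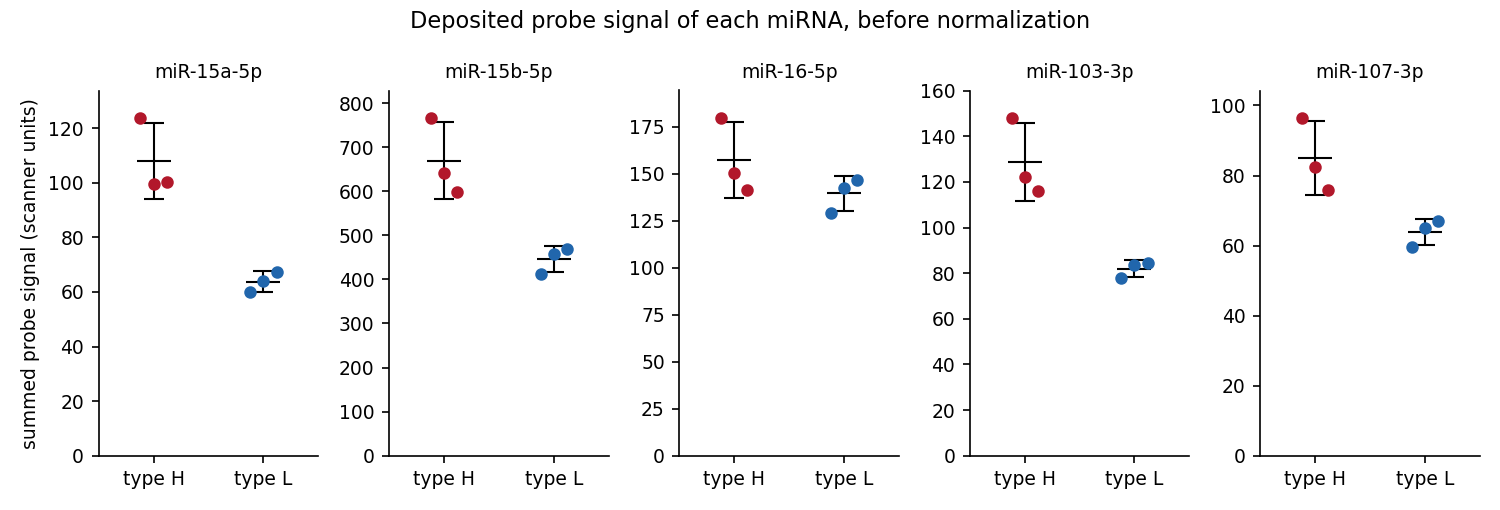
Summed probe signal of each of the 5 miRNAs in scanner units (vertical axis, from 0, a scale of its own in each panel) on the 3 type H and 3 type L arrays before normalization. Points are arrays 1 to 3 from left to right, and bars are the mean ± SD. Groups overlap for miR-16-5p (type H array 3 at 141, type L array 3 at 147) and not for the other 4. With scaling on the control-feature median 3 of the 5 were called lower in type H, and with scaling on the spike-ins all 5 were.

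By exact permutation of the 6 arrays (two-sided) each member had p = 0.1, the smallest that 3 arrays against 3 allow. No overlap between the groups was also usual: 142 of the 311 miRNAs (45.7%) had every type H array above every type L array after quantile normalization, and 99 (31.8%) before it. Ranked by log2 fold change among the 311, miR-15a-5p was number 64, miR-15b-5p 73, miR-103-3p 85, miR-107-3p 104 and miR-16-5p 130. The median of the 5 was 0.52, against 0.026 over all miRNAs tested.

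**Figure D2:**
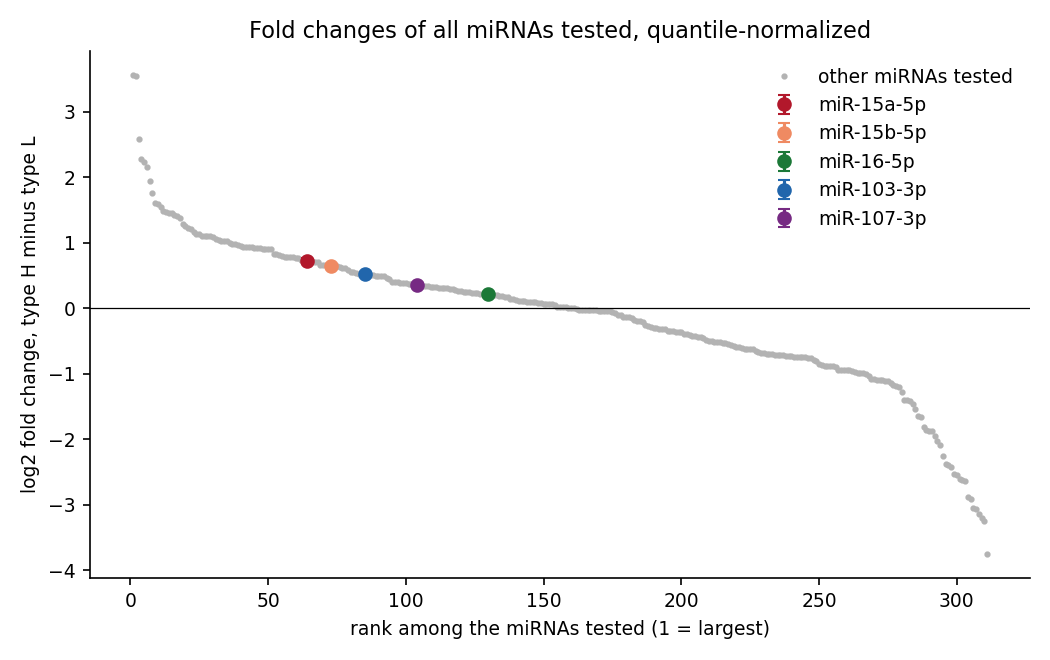
Log2 fold change, type H minus type L, after quantile normalization (vertical axis) against rank (horizontal axis, 1 is the largest) for the 311 miRNAs tested. Coloured points are the 5 members with their standard errors, which are smaller than the symbols, and grey points are the others. The members sit between ranks 64 and 130, in the upper middle of the range. With scaling on the spike-ins all 5 lie below 0, and with scaling on the control-feature median miR-15a-5p lies at -0.0064 and the others below 0.

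The direction depended on what the arrays were scaled on. In the authors' own log2 table the fold changes were 0.72 for miR-15a-5p, 0.54 for miR-15b-5p, 0.52 for miR-103-3p, 0.35 for miR-107-3p and 0.21 for miR-16-5p, and all 5 passed the test (262 of 311 miRNAs, 84.2%, did so). Setting the median of the control features equal on all arrays, a scaling chosen after the data had been seen, gave -0.0064 for miR-15a-5p (limma adjusted p = 0.91), -0.12 for miR-103-3p (0.051), -0.18 for miR-15b-5p (0.0087), -0.35 for miR-107-3p (0.00016) and -0.59 for miR-16-5p (1.0e-05). Using only the 4 spike-in features, chosen at the same time, gave -0.31 to -0.89, and all 5 were called lower. Both scalings moved nearly every miRNA the same way, with 83.6% and 89.4% of those tested called lower in type H. The part of the brighter slide in the direction of these changes was not tested. With the spike-ins, and also with no normalization, limma gave every member the same standard error, 0.14. Calls in these settings thus rest on a variance pooled over miRNAs and not on the spread of each one.

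The members were also set against the other miRNAs on the same arrays. The median log2 fold change of the 231 miRNAs detected on all arrays was 0.11 after quantile normalization, -0.22 with scaling to the 75th percentile, -0.12 with no normalization, 0.19 in the authors' table, -0.87 with scaling on the control median and -1.18 with the spike-ins. A single factor per array cancels when this median is subtracted, so scaling to the 75th percentile, no normalization and both scalings on control features give 1 and the same value here, which leaves 6 distinct values per member over the 9 scalings and signals. MiR-15a-5p lay above the median by 0.50 to 0.87. MiR-103-3p lay above it by 0.31 to 0.76, miR-15b-5p by 0.36 to 0.70 and miR-107-3p by 0.17 to 0.52. MiR-16-5p lay from -0.025 to 0.28 of it, below it with the totals as deposited. After quantile normalization, 82.7% of these miRNAs had a smaller fold change than miR-15a-5p and 55.4% had a smaller one than miR-16-5p.

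**Figure D3:**
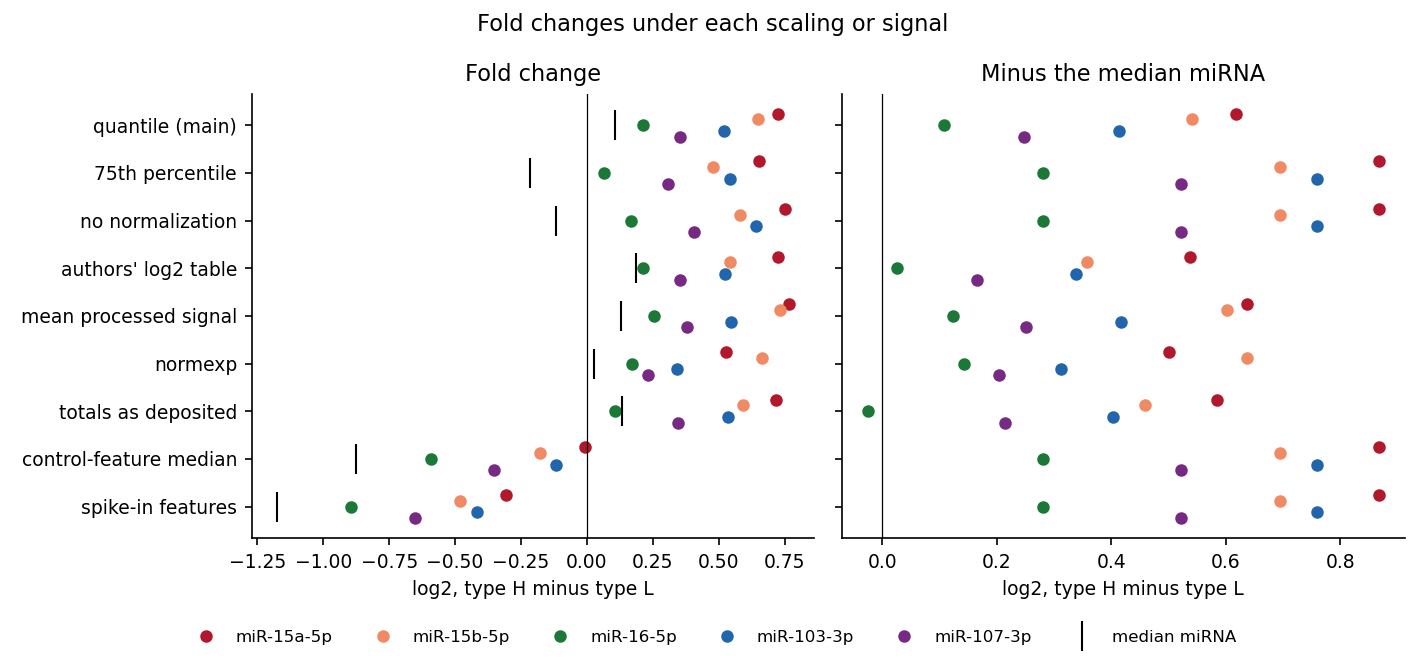
Left, log2 fold change (type H minus type L, horizontal axis) of the 5 miRNAs under each of 9 scalings or signals (vertical axis), with the median of the 231 miRNAs detected on all arrays as a black tick. Right, the same fold changes minus that median. On the left all 5 lie above 0 in the upper 7 rows and below 0 with the control-feature median (-0.0064 to -0.59) and the spike-ins (-0.31 to -0.89). On the right the rows for the 75th percentile, no normalization and both control scalings are identical by construction, and miR-16-5p is the one member below 0 in a row (-0.025, totals as deposited).

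A factor common to an array cancels in the difference between 2 miRNAs on it, so the members were also compared with each other within arrays. The quantity is the log2 fold change of one member minus that of another, and it says nothing of which is more abundant. A slide difference that varies from probe to probe does not cancel in it. The control features differed between the slides by unequal amounts, 0.21 to 1.47 on the log2 scale, and the 4 spike-ins among them by 0.64 to 1.47. The part of such unequal shifts in the pair differences was not tested, and cell type and slide cannot be told apart here either. All 10 pairs were compared by the exact two-sided permutation test, each gave p = 0.1, the smallest possible, and with adjustment over the 10 pairs it stayed at 0.1, so none can pass a threshold of 0.05 in this design. No pair overlapped between the cell types after quantile normalization. How many pairs of other miRNAs are also without overlap was not worked out. Of single miRNAs, 45.7% had every type H array above every type L array and 42.1% every one below. The lack of overlap is thus not read as a trait of the members.

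Both partners of miR-16-5p had a higher signed fold change than miR-16-5p itself, so that they rose more after quantile normalization and lay less far below 0 with scaling on the control features. The fold change of miR-15a-5p exceeded it by 0.51 after quantile normalization and by 0.59 with no normalization, and within the arrays the log2 difference of the pair was -0.61 ± 0.060 (SD, n = 3) in type H and -1.12 ± 0.039 (SD, n = 3) in type L ECs. For miR-15b-5p the excess was 0.43 and 0.41 on these scales. This second pair had the tightest ratio before normalization, with a log2 difference of 2.09 ± 0.0045 (SD, n = 3) in type H and 1.68 ± 0.0037 (SD, n = 3) in type L ECs. Over the 14 alternatives the first excess stayed between 0.36 and 0.61 and the second between 0.33 and 0.49.

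MiR-103-3p and miR-107-3p, which share their seed and nearly their whole sequence, also had unequal fold changes. The signed fold change of miR-103-3p was larger by 0.17 after quantile normalization and by 0.24 with no normalization. Within the arrays the log2 difference of miR-103-3p over miR-107-3p was 0.60 ± 0.028 (SD, n = 3) in type H and 0.36 ± 0.025 (SD, n = 3) in type L ECs before normalization. Over the 14 alternatives the excess was 0.11 to 0.24.

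Across the 2 seeds the order was mixed. The signed fold change of miR-16-5p was lower than that of miR-107-3p by 0.14 and than that of miR-103-3p by 0.31 on the log2 scale after quantile normalization, and on the control scalings, where it was the most negative, it was lower than both as well. MiR-15a-5p exceeded miR-107-3p by 0.37 and miR-103-3p by 0.20, and miR-15b-5p exceeded miR-107-3p by 0.29. After quantile normalization the largest and the smallest change were thus both among the 3 members with AGCAGCA as their seed. Neighbours in the order could not all be separated. MiR-15b-5p exceeded miR-103-3p by 0.13 after quantile normalization, by 0.020 in the authors' table, where the groups overlapped (exact permutation p = 0.8), and was smaller by 0.064, a difference of -0.064, with no normalization or scaling to the 75th percentile. MiR-15a-5p exceeded miR-15b-5p by 0.077, and with normexp background correction the sign turned to -0.14.

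**Figure D4:**
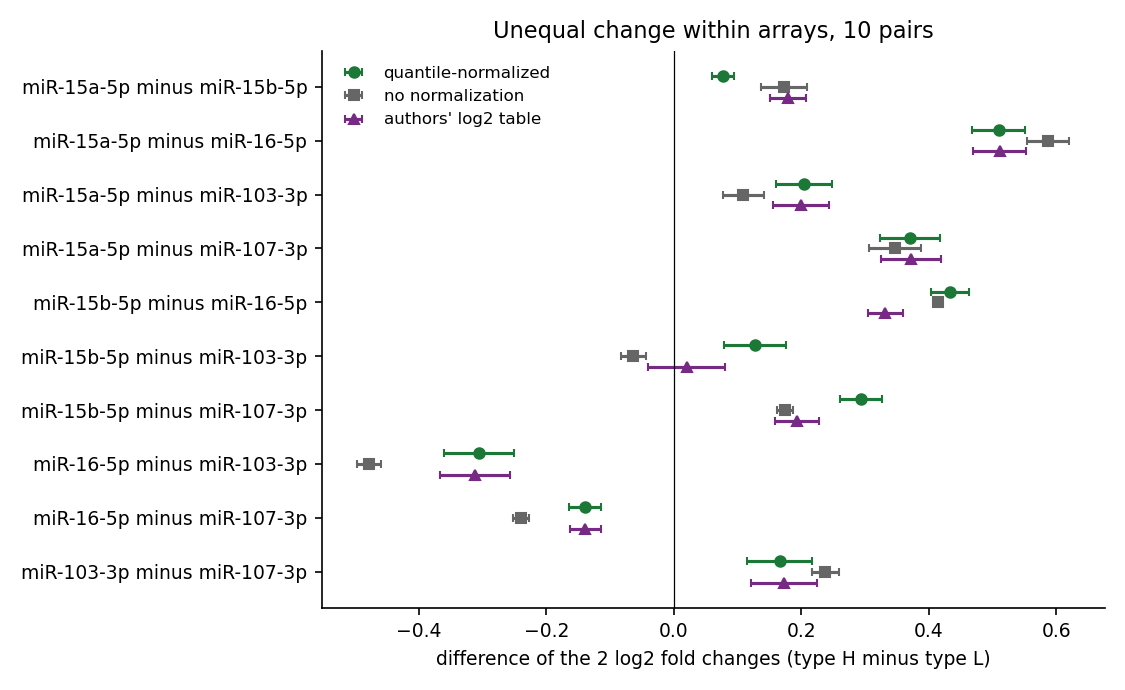
Difference between the log2 fold changes (type H minus type L) of 2 members, within arrays, for the 10 pairs (vertical axis), with quantile normalization (circles), no normalization (squares) and the authors' log2 table (triangles). Bars are the standard error of the difference between the 3 type H and the 3 type L arrays. Every pair keeps its side of 0 in these 3 except miR-15b-5p minus miR-103-3p (0.13, -0.064 and 0.020). A scaling by 1 factor per array, such as that on the control features, leaves the squares where they are.

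The probes of a member were then compared. In the fit across 577 probes 501 passed (86.8%), 249 of them higher in type H (43.2%), and all 10 member probes were among those higher. These directions are those of quantile normalization, and with scaling on the control-feature median 3 of the 5 summed signals were called lower and with the spike-ins all 5. The 2 probes of miR-15a-5p moved alike, with log2 fold changes of 0.83 (21 bases) and 0.81 (22 bases). Those of miR-16-5p gave 0.19 (17 bases) and 0.13 (18 bases), the smallest of the 10.

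The probes of miR-103-3p and miR-107-3p were less even. The 17-base probe of miR-103-3p read 28.8, 23.4 and 22.6 on the type H arrays and 17.8, 18.2 and 19.1 on the type L arrays, and the 18-base probe read 119, 98.7 and 93.4 against 60.1, 65.4 and 65.6. Neither probe overlapped between the cell types, but the share of all probes without overlap was not worked out. The log2 fold changes of the 17-base and 18-base probes were 0.63 (standard error 0.026) and 0.74 (standard error 0.025), a difference of 0.11. With no normalization they were 0.44 and 0.70, a difference of 0.26 (exact permutation p = 0.1 for each difference). For miR-107-3p the 19-base probe read 29.7, 25.6 and 23.5 against 17.6, 19.1 and 19.4, and the 20-base probe read 66.8, 56.9 and 52.3 against 42.0, 45.8 and 47.7. The shorter probe changed by 0.66 (standard error 0.043) and the longer by 0.41 (standard error 0.043), a difference of -0.25, or -0.11 with no normalization (exact permutation p = 0.1 for each). The shorter probes of the pair thus gave 0.63 for miR-103-3p and 0.66 for miR-107-3p, and the gap between these miRNAs was in the longer probes.

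MiR-15b-5p shows how the normalization enters. Its 19-base and 20-base probes both changed by 0.40 when probes were quantile-normalized, yet by 0.39 and 0.64 with no normalization, and their sum changed by 0.65 when miRNAs were quantile-normalized and by 0.58 with no normalization. With no normalization the longer probe exceeded the shorter by 0.25 (exact permutation p = 0.1), and after normalization by -0.00014.

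**Figure D5:**
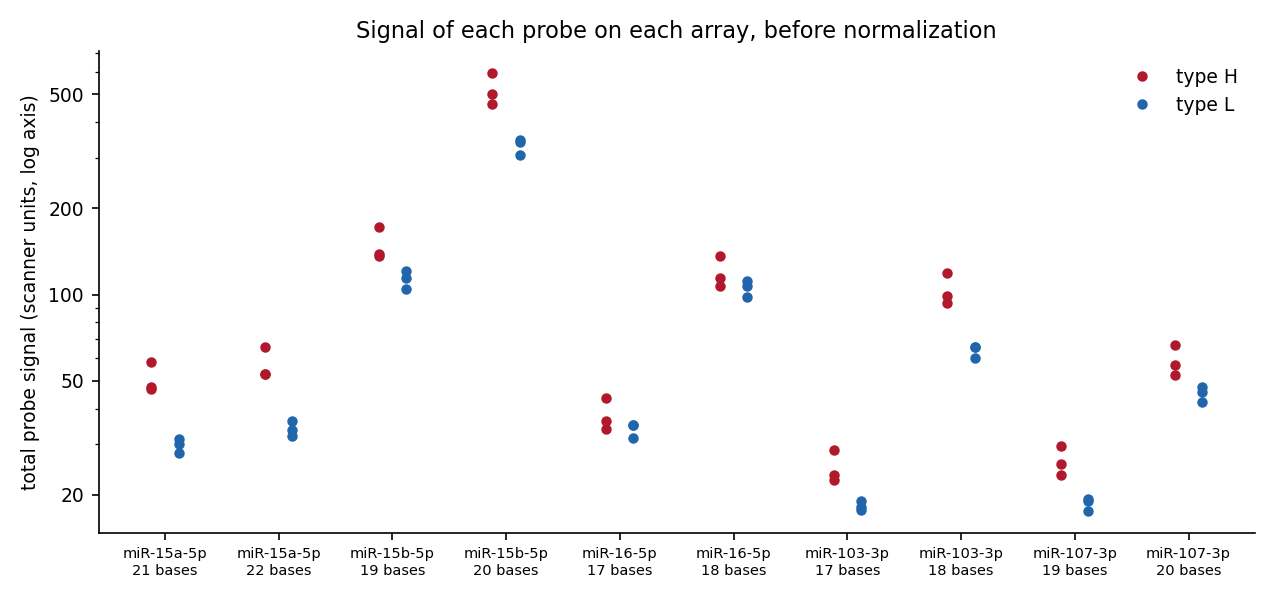
Total signal of each of the 10 member probes in scanner units (vertical log axis) on the 3 type H and 3 type L arrays before normalization, with probe lengths under the names. Arrays of the cell types overlap for both probes of miR-16-5p and for no other probe shown. The share of all probes without overlap was not worked out. Among miRNAs, 31.8% had every type H array above every type L array before normalization. Type H means are above type L means for all 10 probes here, whereas all 5 summed signals were called lower in type H with scaling on the spike-ins and 3 of them with scaling on the control-feature median.

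On the array 7 other miRNAs carried AGCAGCA at base 2. MiR-195b, miR-6342, miR-6353 and miR-6419 were undetected on all 6 arrays. The other 3 were detected on all 6, and their sequences are shown, seed in capitals, for comparison with the members.
miR-195a-5p: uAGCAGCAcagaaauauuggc
miR-497a-5p: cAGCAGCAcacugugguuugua
miR-322-5p: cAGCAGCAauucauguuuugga
MiR-195a-5p, whose 3′ part resembles that of miR-16-5p, read 147, 119 and 114 on the type H arrays and 10.1, 12.5 and 11.5 on the type L arrays. It had a log2 fold change of 3.57 (standard error 0.081), which fell to 1.33 (limma adjusted p = 0.25) with the totals as deposited, and that of miR-497a-5p, its neighbour in the genome, was 3.54 (standard error 0.057). These were the largest and second largest of the 311 after quantile normalization. The deposited totals of miR-195a-5p on type L arrays 1 and 3 were 86.6 and 95.9, above the sums of its probes. With scaling on the control median and on the spike-ins miR-195a-5p stayed above 0, at 2.71 and 2.41. MiR-497a-5p did so as well, at 2.64 and 2.33. MiR-322-5p read 187, 145 and 142 on the type H arrays and 114, 123 and 125 on the type L arrays, and its log2 fold change of 0.37 (standard error 0.045) fell within the range of the members, as did its turn to -0.39 with scaling on the control median.

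The opposite strands of the members' hairpins were looked for as well. Of these, 6 of 7 were on the array under their own names, miR-15a-3p, miR-15b-3p, miR-16-1-3p, miR-16-2-3p, miR-103-1-5p and miR-107-5p, and none was detected on any array, with summed signals of at most 1.96 scanner units. A direction for these strands could not be given.

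For each member the nearest profiles among 296 other miRNAs tested (all but the members, the other carriers of the heptamer and the stromal miRNAs) were taken, by the root mean square difference over the 6 arrays of log2 signals centred on their own means. These were miR-467a-3p (0.034) and miR-467b-5p (0.042) for miR-15a-5p, miR-467b-5p (0.023) and miR-532-5p (0.026) for miR-15b-5p, and miR-361-5p (0.030) and miR-151-5p (0.032) for miR-103-3p. MiR-30d-5p (0.020) and miR-30c-5p (0.029) were nearest to miR-16-5p, and let-7b-5p (0.018) and let-7a-5p (0.031) to miR-107-3p. Among the members themselves the nearest were miR-15a-5p and miR-15b-5p (0.042) and the farthest miR-15a-5p and miR-16-5p (0.26). All of these profiles share the same 6 arrays.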

How the data were processed

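Cy3-labelled RNA of 6 sorted samples was hybridized to 1-colour Agilent arrays. The authors extracted background-subtracted intensities with Feature Extraction 10.7.1.1 and deposited spot and probe intensities without normalization between arrays, and also deposited a log2 table that their methods describe as quantile-normalized (column medians -3.32 to -3.26, the level of undetected miRNAs, with its offset unknown). The labels describe amplified cRNA and the methods Cy3-labelled small RNA, and the header and the methods name different array designs. A genome sequence was not used here, and names and positions come from RefSeq tables of GRCm38.p6.

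The members and lists were chosen with earlier results of these data known. Each miRNA's signal was the sum of the deposited total intensities of its distinct probes, control features left out. For the members this equalled the deposited total on all 6 arrays (30 of 30 values, relative tolerance 1e-04), whereas 65 to 85 other detected miRNAs per array had a larger deposited total. Sums were quantile-normalized over 1881 miRNAs, set to at least 1 and log2-transformed. The filter kept the 311 miRNAs detected on every array of either cell type. Cell types were compared with limma 3.58.1 in R 4.3.3, with Benjamini-Hochberg adjustment over all miRNAs tested and a threshold of 0.05, a script first tested on simulated data. Probes whose total exceeded 3 times its error on all arrays of a cell type were fitted in the same way. Pairs of members were compared by exact permutation. Named miRNAs were the members, their opposite strands, the carriers of AGCAGCA at base 1 or 2, and the 2 nearest profiles of each member. Alternatives covered normalization, signal, background, filter, floor, the methods' t-test, a replicate block and each array left out. The number of arrays limits the precision.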

Additional observations from a re-analysis of the deposited data

How the results depend on the processing

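MiR-15a-5p, miR-15b-5p, miR-103-3p and miR-107-3p kept their direction and call in all 12 other settings tried on scaling, signal, filter, floor and test, with log2 fold changes of 0.53 to 0.77, 0.48 to 0.73, 0.34 to 0.64 and 0.23 to 0.41, and in all 6 fits that omitted an array. MiR-16-5p kept its call in those 6 fits (0.18 to 0.24) but lost it with scaling to the 75th percentile (0.066), no normalization (0.17) and the totals as deposited (0.11), and with no normalization its probes lost theirs (0.15 and 0.17). With the totals as deposited its own totals are the same and the values that other miRNAs give to the quantiles differ. Scaling on the control median and on the spike-ins, added after seeing the data, took below 0 miR-15a-5p (-0.0064, adjusted p = 0.91, and -0.31), miR-15b-5p (-0.18 and -0.48), miR-16-5p (-0.59 and -0.89), miR-103-3p (-0.12 and -0.42), miR-107-3p (-0.35 and -0.65) and miR-322-5p (-0.39 and -0.69). With these scalings 22 and 9 miRNAs were called higher and 260 and 278 lower. Among miRNAs detected on all 6 arrays 81 were called lower, and with no filter 413 were called, 220 higher, a setting in which limma warned that most variances were 0. Of the 10 pairs, miR-15b-5p minus miR-103-3p turned to -0.064 with scaling to the 75th percentile and with no normalization, and miR-15a-5p minus miR-15b-5p to -0.14 with normexp. The cause was not tested. No pairing by replicate number was visible: same-numbered arrays had deviations correlated at 0.016, -0.12 and 0.15, and 2 of 6 arrays correlated best with their own number. With 3 arrays per cell type this check cannot exclude a pairing. With the number as a replicate block 262 miRNAs were called, and the 5 members kept their log2 fold changes of 0.72, 0.65, 0.21, 0.52 and 0.35 and their calls. By the methods' t-test on the same values 266 of 307 miRNAs were past an unadjusted threshold of 0.05 and 264 after Benjamini-Hochberg adjustment, the 5 members among both.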
